A study of Mus musculus with 6 samples.

Results

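The genes described here encode the 2 Id proteins and the 3 E proteins best known in lymphocytes, namely Id2, Id3, Tcf3, Tcf12 and Tcf4. They were chosen by symbol, and each of the 5 matched 1 of the 27998 genes listed in all 6 libraries. The libraries were droplet-based 3′ single-cell RNA profiles of invariant natural killer T (iNKT) cells, T cells with a semi-invariant receptor that recognises lipids on CD1d. The cells came from liver, spleen and lymph node of wild-type C57BL/6 mice aged 5 weeks, with 2 libraries per organ. All groups shared the same enrichment, in which CD8+ and B220+ cells were depleted and cells binding an antibody to TCR-β and the CD1d tetramer were sorted. No group carried a transgene, a deletion or a treatment. The labels give neither the sex nor the number of mice behind a library, and they name the molecule as nuclear RNA. The p-values below measure the spread between 2 libraries per organ.

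E proteins are basic helix-loop-helix transcription factors that bind E-box DNA as pairs. Id proteins carry the helix-loop-helix region and no DNA-binding region, so a pair of an Id protein and an E protein does not bind DNA. Id2 and Id3 therefore set how much E protein activity a lymphocyte has, and both are known to be needed for the normal number and subset make-up of iNKT cells. Tcf3 encodes E2A, Tcf12 encodes HEB and Tcf4 encodes E2-2.

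The 6 libraries held 16532 cells after filtering, 5662 from liver, 5384 from spleen and 5486 from lymph node. Ribosomal and haemoglobin genes were left out, after which a library held 3607599 to 7127281 unique molecular identifiers (UMIs, counted mRNA molecules). Liver libraries were the deepest, with a median of 3592 and 2880 UMIs per cell against 1470 to 1730.5 in the other libraries. Levels are given in CPM, the UMIs of a gene per 1000000 UMIs of the cells summed, which are those of the whole library or of a cluster or class within it. The cell type was checked with its markers. Cd3d, a chain of the T cell receptor complex, lay between 1729 and 2339 CPM in all libraries, and Zbtb16, which encodes the iNKT factor PLZF, between 71.5 and 100.2 CPM. Xist had 5401 to 10404 UMIs in each liver or spleen library and 0 in those of lymph node, whereas Y-linked genes had 0 UMIs in the former and 1362 and 1579 in the latter. Each difference between lymph node and another organ below therefore cannot be told apart from a difference between mice of different sex.

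Id2 was among the most abundant transcripts of every library and Id3 was scarce, and Id3 differed more between organs than Id2. Summed over the 6 libraries, the cells held 106226 UMIs of Id2, 1471 of Id3, 2399 of Tcf3, 2594 of Tcf12 and 99 of Tcf4. Id2 ranked 18 to 24 among 27887 genes in each library, while Id3 ranked from 1311 to 6520. The Id transcripts outnumbered those of the 3 E proteins by 18.6 to 25.1 UMIs to 1. This ratio of UMIs was 19.4 and 25.1 for liver, 22.5 and 21.5 for spleen, and 19.6 and 18.6 for lymph node, and the libraries of liver spanned those of spleen. A 3′ library takes tags from the ends of transcripts, and a count of RNA is not a count of protein. The other Id genes were nearly absent. Id1 had 0 to 13 UMIs per library, and Id4 had none.

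Id2 (ENSMUSG00000020644, chromosome 12, 25093799 to 25097140 on the minus strand of GRCm38, overlapping no other annotated gene) is associated with mature and effector lymphocytes. The liver libraries held 4133 and 4010 CPM, the spleen libraries 4306 and 3862 CPM, and the lymph node libraries 2897 and 2964 CPM. The lymph node libraries were the lowest and did not overlap the others, while liver and spleen overlapped. Mean levels were 4071 ± 86.8, 4084 ± 314 and 2931 ± 47.1 CPM (SD, n = 2 each). Id2 was 1.34-fold higher in liver than in lymph node (log2 0.42, SE 0.12, edgeR quasi-likelihood adjusted p = 0.00791). Spleen exceeded lymph node 1.41-fold (log2 0.50, SE 0.12, edgeR adjusted p = 0.00394). Both calls were lost when either lymph node library was left out (edgeR adjusted p of 0.0519 to 0.0631), and the spleen call also without spleen replicate 1 (edgeR adjusted p = 0.0713), at folds that moved little. Between liver and spleen the log2 difference was -0.08, with a 95% interval of -0.33 to 0.17 and an edgeR adjusted p of 0.681.

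Id3 (ENSMUSG00000007872, chromosome 4, 136143497 to 136145755 on the plus strand, overlapping no other annotated gene) is known to be induced by T cell receptor signals through Egr factors and to be high in naive and recently selected T cells. Its level was 17.0 and 18.0 CPM in liver (121 and 110 UMIs), 53.1 and 58.5 CPM in spleen (206 and 211 UMIs), and 132 and 90.5 CPM in lymph node (493 and 330 UMIs). The organs lay in the order liver, spleen, lymph node, and no library crossed into another organ's range. Mean levels were 17.5 ± 0.712, 55.8 ± 3.80 and 111 ± 29.5 CPM (SD, n = 2 each). Id3 was 3.36-fold lower in liver than in spleen (log2 -1.75, SE 0.18, edgeR adjusted p = 4.51e-08). It was 6.63-fold lower in liver than in lymph node (log2 -2.73, SE 0.17, edgeR adjusted p = 2.64e-13). The step from spleen to lymph node was smaller, with a level 1.97-fold lower in spleen (log2 -0.98, SE 0.16, edgeR adjusted p = 3.07e-05). Liver libraries were the deepest and lymph node libraries among the shallowest, so raw UMIs of Id3 ran against depth.

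**Figure D1:**
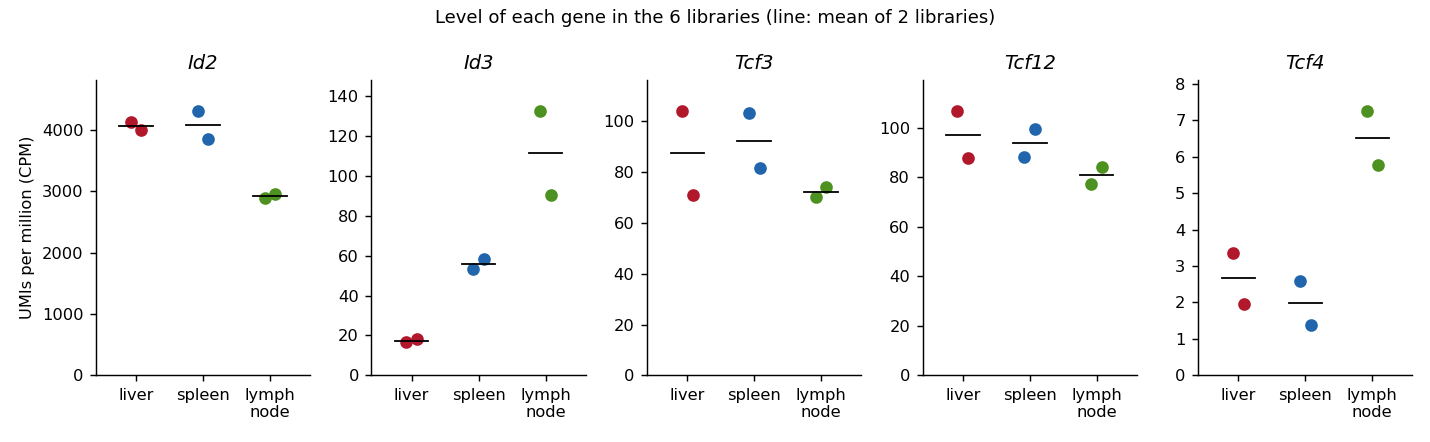
Level of each gene in each library, in CPM, with a panel and a linear axis from 0 for each gene. Points are libraries and lines are organ means (n = 2). Id3 rises from 17.0 and 18.0 CPM in liver to 132 and 90.5 CPM in lymph node without overlap, while Tcf3 and Tcf12 lie at 70.0 to 107 CPM in all libraries.

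Among the E protein genes, Tcf3 and Tcf12 differed less than Id3. Tcf3 (ENSMUSG00000020167, chromosome 10, 80409514 to 80433647, minus strand) lay at 104 and 71.0 CPM in liver, 103 and 81.5 CPM in spleen, and 70.0 and 74.0 CPM in lymph node. The liver libraries stood as far apart as the organs did, and liver overlapped both other organs. Tcf12 (ENSMUSG00000032228, chromosome 9, 71842688 to 72111871, minus strand) lay at 107 and 87.8 CPM in liver, 88.2 and 99.5 CPM in spleen, and 77.5 and 84.2 CPM in lymph node. The annotation places 11 other genes within its span, 7 of them on the same strand, and none of these is among the genes counted. Neither gene was called in any pair of organs. Tcf3 was called between spleen and lymph node without a filter on low counts (0.38, edgeR adjusted p = 0.0423) and when liver replicate 1 (0.37), liver replicate 2 (0.37) or spleen replicate 2 (0.52) was left out, and between liver and lymph node without liver replicate 2 (0.45, edgeR adjusted p = 0.0186). The widest difference was that of Tcf3 between spleen and lymph node, at log2 0.38 with a 95% interval of 0.07 to 0.69 and an edgeR adjusted p of 0.0876. For Tcf12 the widest was 0.24 for the same pair (edgeR adjusted p = 0.237).

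Tcf4 (ENSMUSG00000053477), best known as the E protein of plasmacytoid dendritic cells, was at the edge of detection. Its UMIs numbered 24 and 12 for liver, 10 and 5 for spleen, and 27 and 21 for lymph node. This is 3.37 and 1.96 CPM, 2.58 and 1.39 CPM, and 7.24 and 5.76 CPM, so the lymph node libraries were highest and did not overlap the others. Tcf4 was lower in liver than in lymph node (log2 -1.32, SE 0.39, edgeR adjusted p = 0.00761) and lower in spleen than in lymph node (log2 -1.67, SE 0.46, edgeR adjusted p = 0.00902). DESeq2 made neither call (adjusted p = 0.0828 and 0.0817). Both were also lost without lymph node replicate 1 (-1.13 and -1.49, edgeR adjusted p = 0.119 and 0.118), the first without liver replicate 2 (-1.02, edgeR adjusted p = 0.0882) and the second without spleen replicate 2 (-1.32, edgeR adjusted p = 0.107) or without cells holding a marker of another cell type (-1.45, edgeR adjusted p = 0.0956). A cluster of 26 cells with B cell and myeloid markers held 10 of the 36 Tcf4 UMIs of liver, 1 of 15 in spleen and 1 of 48 in lymph node. Without it the log2 differences were -1.75 (edgeR adjusted p = 0.00129) and -1.74 (0.00908). Of the plasmacytoid dendritic cell markers, Klk1, Siglech and Cd300c were at 0 in every library, and the whole list summed to 0.268 to 5.07 CPM.

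In sums over all cells, 10250 genes had enough counts for the test, and all 5 members were among them. Between liver and spleen 1 of the 5 was called, where 25.9% of all tested genes were. Between liver and lymph node 3 of 5 were called, against 37.5% of all genes, and between spleen and lymph node 3 of 5, against 18.2%. By direction, 12.8% of all genes were higher and 13.1% lower in liver than in spleen, 18% higher and 19.6% lower in liver than in lymph node, and 7.89% higher and 10.3% lower in spleen than in lymph node. In these sums, fewer cells of a type and less RNA per cell cannot be told apart.

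**Figure D2:**
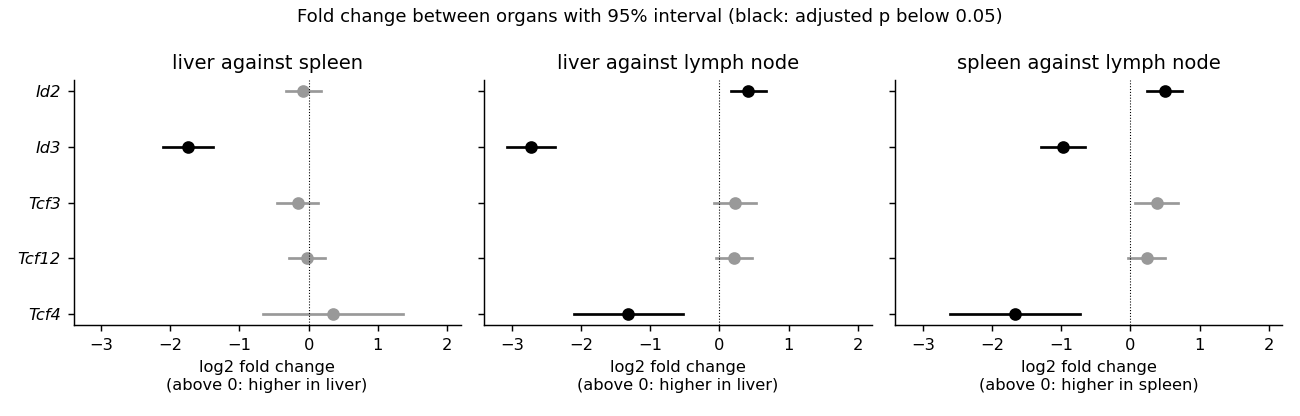
Log2 fold change of each gene for the 3 pairs of organs in sums over all cells, with 95% intervals from edgeR (n = 2 libraries per organ) and black for an adjusted p below 0.05. Id3 lies at -1.75, -2.73 and -0.98, and the intervals of Tcf3 and Tcf12 stay within 1 log2 unit of 0.

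The balance of the 2 Id genes follows from these levels but is a ratio within each library, which no scaling between libraries touches. There were 243 and 223 UMIs of Id2 per UMI of Id3 for liver, 81.1 and 66.0 for spleen, and 21.9 and 32.8 for lymph node. The organs did not overlap. On the log2 scale the means were 7.86 ± 0.09, 6.19 ± 0.21 and 4.74 ± 0.41 (SD, n = 2 each), which is a difference of 1.67 between liver and spleen and of 1.45 between spleen and lymph node. An exact permutation test of the F statistic over the 15 ways of forming 3 pairs of libraries gave p = 0.0667, the smallest it can give, and an exact two-sided comparison of 2 libraries with 2 cannot go below 0.333. Id3 made up 0.409% and 0.447% of the summed UMIs of both genes for liver, 1.22% and 1.49% for spleen, and 4.36% and 2.96% for lymph node.

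**Figure D3:**
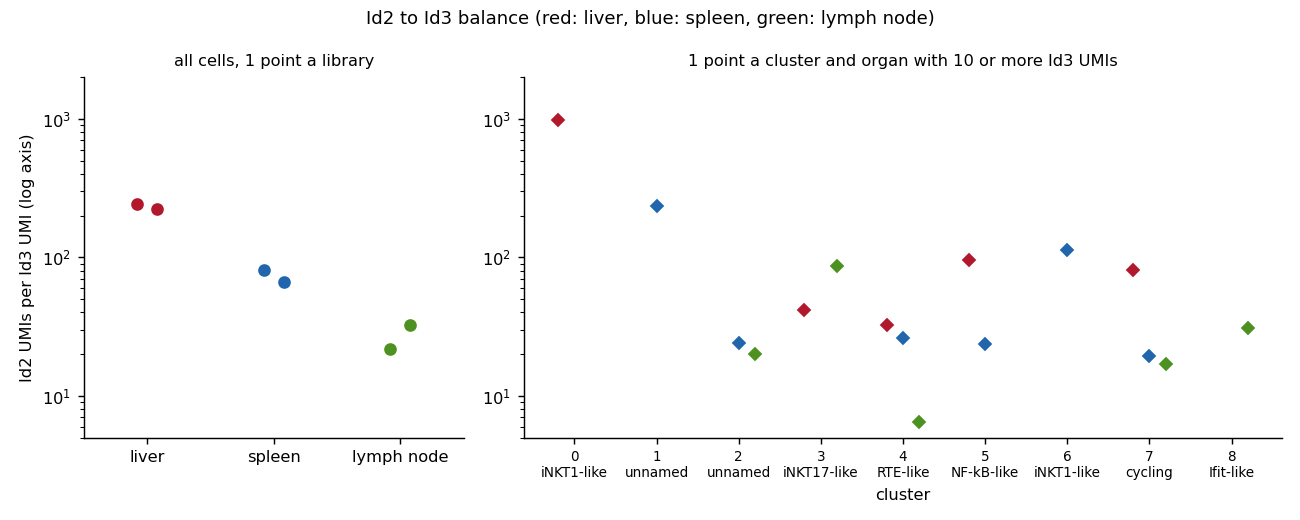
UMIs of Id2 per UMI of Id3 on a log axis, at left for each library and at right for each cluster and organ with at least 10 Id3 UMIs, without the 26-cell cluster. The liver libraries lie at 243 and 223, the spleen libraries at 81.1 and 66.0 and the lymph node libraries at 21.9 and 32.8.

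Single cells showed the same order by presence. Because liver cells were deeper, each cell was thinned to 1000 UMIs, and shallower cells were left out, namely 0 and 9 for liver, 144 and 169 for spleen, and 265 and 488 for lymph node. Id3 was then seen in 0.750% and 0.701% of liver cells, 2.21% and 2.57% of spleen cells, and 6.53% and 5.34% of lymph node cells. Without thinning the shares were 2.57% and 2.06%, 4.47% and 5.80%, and 11.3% and 7.41%. Id2 was seen in 90.6% and 91.3% of thinned liver cells, 92.8% and 89.2% of spleen cells, and 80.6% and 81.9% of lymph node cells. The lymph node libraries were thus the highest for Id3 and the lowest for Id2. As a measure of free RNA, the B cell gene Cd79a was seen in 0% to 0.211% and the hepatocyte gene Alb in 0% to 0.0716% of unthinned cells outside a cluster of 26 B-cell-like and myeloid cells. The myeloid gene Lyz2 was seen in 0.0753% to 2.18%, with the highest share in lymph node replicate 2, and the haemoglobin gene Hbb-bs in 7.48% and 3.47% of liver cells and in at most 0.0377% elsewhere. The unthinned Id3 shares of liver lie below those of Hbb-bs, and the part of free RNA in them was not tested.

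The presence of Id3 did not mean the absence of Id2. In lymph node, 5.06% and 3.86% of thinned cells held both transcripts and 1.47% and 1.48% held Id3 alone. In spleen these shares were 1.82% and 1.85% for both and 0.387% and 0.724% for Id3 alone, and in liver 0.714% and 0.491% against 0.0357% and 0.210%. The product of the separate shares of Id2 and Id3, which is the share that would hold both if the genes were unrelated, was 5.27% and 4.38% in lymph node, 2.05% and 2.30% in spleen, and 0.679% and 0.640% in liver. The observed share lay below the product in 5 of 6 libraries in this random draw. For liver replicate 1, the exception, it lay below at 700 UMIs (0.357% against 0.442%) and at 1500 UMIs (0.852% against 0.928%). For liver replicate 2 it lay just above at 700 UMIs (0.350% against 0.348%). The liver shares with Id3 alone rest on 1 and 6 cells. Among cells with either transcript, those with Id3 alone formed 0.0394% and 0.230% for liver, 0.415% and 0.805% for spleen, and 1.80% and 1.78% for lymph node, with an exact permutation p of 0.0667, again the smallest possible. Without thinning the exact permutation p was 0.133.

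Over all cells of a library, Id3-positive cells mostly carried fewer Id2 molecules at equal depth. The mean Id2 count per thinned cell was 1.95 and 1.77 in Id3-positive lymph node cells against 2.22 and 2.37 in the others, and 2.32 and 2.28 against 3.33 and 3.08 in spleen. In liver it was 3.24 against 2.84 in replicate 1 and 1.80 against 2.89 in replicate 2, which rest on 21 and 20 Id3-positive cells. The Id2 mean was therefore lower in the Id3-positive cells of 5 of 6 libraries in this random draw. In liver replicate 1 it was lower at 700 UMIs (1.40 against 1.99) and at 1500 UMIs (2.96 against 4.25). The same held there with high doublet scores left out (2.41 against 2.85), and in these settings the other libraries were lower as well. Without thinning the Id2 mean was higher in the Id3-positive cells of all 6 libraries. There the Id3-positive cells were also the deeper ones, for example with a median of 2265.5 against 1674 UMIs in lymph node replicate 1. Within clusters the direction varied. The Id2 mean was lower in Id3-positive cells of lymph node cluster 2 (1.90 against 2.64), spleen cluster 1 (3.29 against 3.61), spleen RTE-like cells (1.68 against 2.21) and spleen cycling cells (0.750 against 2.26). It was higher in liver RTE-like cells (2.69 against 2.29) and, in lymph node, in RTE-like (1.09 against 1.01), iNKT17-like (2.15 against 2.01) and cycling cells (2.21 against 2.09). These clusters, defined below, are those with at least 10 Id3-positive cells in the organ. All of these are descriptions of cells within libraries, which are not replicates, and carry no test.

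**Figure D4:**
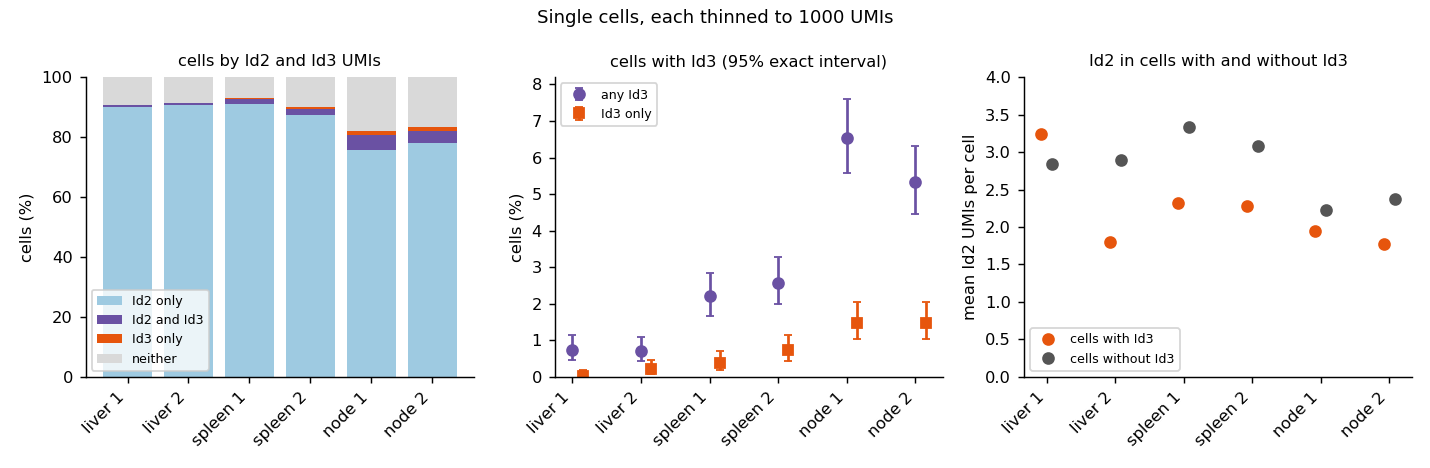
Cells of each library thinned to 1000 UMIs, showing the percent of cells by Id2 and Id3 presence, the percent with Id3 with exact 95% intervals, and the mean Id2 UMIs per cell with and without Id3. Cells with Id3, with or without Id2, form 0.750% and 0.701% of the liver libraries and 6.53% and 5.34% of the lymph node libraries.

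The cells were clustered without the member genes to see which of them carried each transcript. Names come from marker lists and need not be those of the study. iNKT1-like cells, the interferon-γ-producing subset, were clusters 0 (3894 of its 4131 cells from liver) and 6 (led by Gzma and Klra genes). iNKT17-like cells, the interleukin-17-producing subset, were cluster 3 (1876 of 2004 from lymph node), and cluster 4 was like recent thymic emigrants (RTE-like, 989 of 1577 from spleen). A cycling, an interferon-response and an NF-kB-like cluster and the 26-cell cluster were also named. Cluster 1, led by Art2b, Slamf7 and Ccl5, made up 64.0% and 68.7% of spleen cells, and cluster 2, led by Dusp1, Nrgn, Ccl1 and Pdcd1, made up 51.3% and 48.2% of lymph node cells. Both stayed unnamed under a threshold set after the clusters had been seen. Thus most clusters belonged largely to a single organ, and most liver iNKT1-like cells lay in cluster 0 while most spleen ones lay in cluster 6.

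The cluster with the largest share of Id3 transcripts differed between lymph node and spleen. In lymph node, cluster 2 held 556 of the 823 Id3 UMIs (67.6%) with 49.7% of the cells, and iNKT17-like, RTE-like and cycling cells held 9.84%, 9.72% and 8.14%. In spleen, RTE-like cells held 206 of 417 UMIs (49.4%) with 18.4% of the cells, whereas cluster 1 held 20.6% with 66.3% of the cells and cycling cells held 16.3%. In liver, RTE-like cells held 63 of 231 UMIs (27.3%) with 5.55% of the cells, NF-kB-like cells held 24.2%, and the order differed between the libraries. RTE-like cells held 46 and 17 UMIs in liver replicates 1 and 2, NF-kB-like cells 22 and 34, and cycling cells 13 and 25. Cluster 0 of liver held 16.5% with 68.8% of the cells, as did cycling cells with 3.53%. Id2 followed cell numbers more closely, with 69.4% of liver Id2 UMIs in cluster 0, 66.2% of spleen UMIs in cluster 1 and 51.6% of lymph node UMIs in cluster 2.

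The levels in CPM showed where Id3 was dense. In the RTE-like cluster Id3 lay at a mean of 114, 116 and 243 CPM in liver, spleen and lymph node. It lay at 4.55 CPM in cluster 0 of liver (23 and 15 UMIs) and at 20.8 CPM in cluster 1 of spleen (43 and 43 UMIs). In the other organs these clusters held at most 5 Id3 UMIs per library. Outside the 26-cell cluster, and where at least 10 Id3 UMIs were held, the ratio of Id2 to Id3 spanned from 985 UMIs to 1 in liver cluster 0 to 6.49 to 1 in lymph node RTE-like cells, with 236 in spleen cluster 1, 20.1 in lymph node cluster 2 and 86.7 in lymph node iNKT17-like cells. In the iNKT17-like cluster liver had the lower ratio, 42 to 1, but on only 12 Id3 UMIs against 81 in lymph node. After thinning, Id3 was seen in 8 of 3889 liver cells of cluster 0 (0.206%, exact 95% interval 0.0889% to 0.405%) and in 13 of 310 liver RTE-like cells (4.19%, 2.25% to 7.06%). It was seen in 192 of 2241 lymph node cells of cluster 2 (8.57%, 7.44% to 9.80%) and in 33 of 1761 lymph node iNKT17-like cells (1.87%, 1.29% to 2.62%). These intervals cover counting error only.

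**Figure D5:**
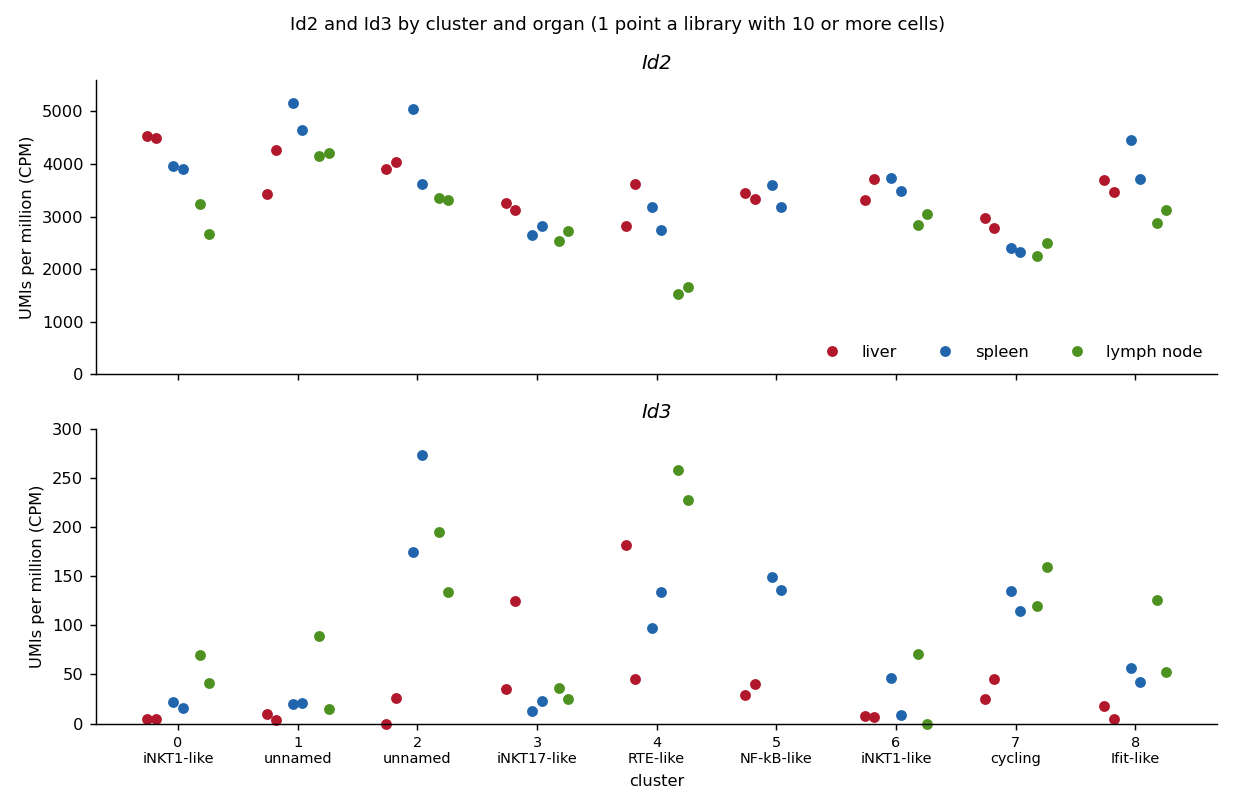
Level of Id2 and Id3 in each cluster and organ, in CPM on linear axes from 0, with a point for each library that held at least 10 cells of the cluster and without the 26-cell cluster. By organ means, Id2 lies at 1599 CPM in lymph node RTE-like cells and Id3 lies at 4.55 CPM in liver cluster 0 and 243 CPM in lymph node RTE-like cells.

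A finer clustering divided the lymph node cells of cluster 2. At Leiden resolution 1.0 a cluster of 880 cells, 840 of them from lymph node, met the marker rule for iNKT2-like cells, the interleukin-4-producing subset, although none of those markers was among its top 10 genes. It held 456 of the lymph node Id3 UMIs (55.4%) with 15.3% of the organ's cells. In its lymph node libraries Id3 was at 396 and 275 CPM and Id2 at 2521 and 2300 CPM. Another cluster of 179 cells, led by Dapl1 and with 169 cells from lymph node, had less Id2. Its Id2 level in lymph node was 860 and 961 CPM, and its Id3 level was 168 and 298 CPM on 37 UMIs in all.

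Comparisons within a cell class ask whether the organ difference remains among cells of the same name, whose clusters can differ between organs. In the lymph node libraries the iNKT1-like class held 52 and 72 cells of cluster 0 and 14 and 27 cells of cluster 6. In iNKT1-like cells Id2 lay at 4464 and 4431 CPM in liver, 3805 and 3636 CPM in spleen, and 3164 and 2776 CPM in lymph node, without overlap. It was higher in liver than in lymph node (log2 0.56, SE 0.14, edgeR adjusted p = 0.00730), where 8.52% of 4212 tested genes were called. That call was lost without lymph node replicate 2 (0.51, edgeR adjusted p = 0.180) and at Leiden resolution 1.0 (0.43, edgeR adjusted p = 0.264). At that resolution the class was a single Gzma-led cluster of 873 cells, since the main liver cluster of 3116 cells stayed unnamed. In the main setting, liver against spleen (0.24, edgeR adjusted p = 0.257) and spleen against lymph node (0.32, edgeR adjusted p = 0.358) were not called. Of all genes 11.6% and 2.11% were called in these pairs. The order of liver and spleen differed between clusters. Liver against spleen gave a log2 difference in Id2 of 0.25 in cluster 0, -0.03 in cluster 6 and -0.34 in cluster 1, which was left out of the class (edgeR adjusted p = 0.382, 0.948 and 0.140). Mean Id2 in cluster 1 was 3849 CPM in liver and 4896 CPM in spleen. Liver against lymph node gave 0.61 in cluster 0, 0.40 in cluster 6 and -0.16 in cluster 1 (edgeR adjusted p = 0.0121, 0.399 and 0.692). Id3 had too few counts for the test in iNKT1-like cells, with 25 and 17 UMIs for liver, 11 and 2 for spleen, and 5 and 3 for lymph node. No conclusion is drawn from the Id3 values that follow, since the liver libraries, at 4.85 and 4.62 CPM, lay below the count filter. Id3 passed the filter in 8 of 11 alternatives, only through spleen or lymph node. It was then lower in liver than in spleen in 5 of them (log2 -3.03 to -2.37, edgeR adjusted p of 0.000317 to 0.0432) and lower in liver than in lymph node in 3 (-3.86 to -2.97, edgeR adjusted p of 0.0196 to 0.0481).

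In iNKT17-like cells only Id2 could be tested. Its log2 differences were 0.26 for liver against spleen, 0.26 for liver against lymph node, and -0.00 for spleen against lymph node, with edgeR adjusted p of 0.495, 0.238 and 0.996. None was called, none had an unadjusted p below 0.05 in edgeR, and DESeq2 called none either. Of all tested genes 4.1%, 17.5% and 4.88% were called in these pairs.

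RTE-like cells had 2829 and 3614 CPM of Id2 in liver, 3179 and 2754 CPM in spleen, and 1534 and 1664 CPM in lymph node. Their Id3 lay at 182 and 45.7 CPM in liver, 97.4 and 134 CPM in spleen, and 258 and 228 CPM in lymph node. Lymph node was lowest for Id2 and highest for Id3 without overlap. Id2 was higher in liver (log2 0.95, edgeR adjusted p = 7.99e-05) and in spleen (0.84, edgeR adjusted p = 0.000479) than in lymph node, and Id3 lower (-1.31 and -1.15, edgeR adjusted p = 0.0295 and 0.0494). The shares of all genes called were 7.23% and 3.17%. The Id3 calls did not survive leaving out either lymph node library (edgeR adjusted p of 0.103 to 0.672) or the use of DESeq2 (adjusted p = 0.502 and 0.945). The Id3 value for liver against lymph node ranged from -2.45 without liver replicate 1 to -0.52 without liver replicate 2 (edgeR adjusted p = 6.36e-09 and 0.327). The Dapl1-led cells made up 84 of 142 and 78 of 132 lymph node cells of the class. Without them, an alternative chosen after seeing the data, none of the 4 calls was made. Id2 then gave 0.49 and 0.38 (edgeR adjusted p = 0.0792 and 0.445), while the Id3 values stayed at -1.35 and -1.19 (edgeR adjusted p = 0.336 and 0.639) with fewer cells. Between liver and spleen neither gene was called, where 7.11% of genes were (Id2 0.11 and Id3 -0.17, edgeR adjusted p = 0.713 and 0.816). The Id3 value depended on the liver libraries, being -1.32 without liver replicate 1 (edgeR adjusted p = 0.0143) and 0.62 without liver replicate 2 (0.194), and it was called with the member genes kept in clustering (-1.11, edgeR adjusted p = 0.00121).

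Cluster 2 and the cycling cluster were the other places where Id3 could be tested. In cluster 2 it had 0 and 3 UMIs for liver, 12 and 5 for spleen, and 344 and 212 for lymph node. By counts against the UMI totals of the cluster, Id3 was 12.6 times higher in spleen than in liver (95% counting interval 3.65 to 67.3) and 10.7 times higher in lymph node than in liver (3.65 to 52.2). Both differences were called by edgeR (adjusted p = 0.0140 and 9.94e-05, with 1.57% and 18.2% of genes called). The liver libraries lay below the count filter there, so Id3 passed it through the organs where it was higher. All liver UMIs of Id3 in this cluster were in replicate 2, and no library was left out there. No conclusion is drawn from these calls or folds. Spleen and lymph node differed by log2 0.15 (edgeR adjusted p = 0.943, 1.71% of genes called). In cycling cells Id3 lay at 24.7 and 45.4 CPM in liver, 135 and 115 CPM in spleen, and 120 and 159 CPM in lymph node. The liver libraries were lower than spleen (log2 -1.80, edgeR adjusted p = 0.000251, 11.4% of genes called) and than lymph node (-2.01, edgeR adjusted p = 2.12e-05, 13.5%). Spleen and lymph node overlapped there (-0.21, edgeR adjusted p = 0.857, 1.84%). Id3 was thus lower in liver than in both other organs in the cycling cluster, which held 8.14% of its lymph node UMIs. That cluster was named by cell-cycle genes, and which iNKT subsets its cells belonged to in each organ was not tested.

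Tcf3 and Tcf12 were found in all clusters. Pooled over organs, whose shares differ between clusters, Tcf3 ranged from 58.4 CPM in interferon-response cells to 93.3 CPM in cluster 1, and Tcf12 from 54.6 CPM in cycling cells to 114 CPM in cluster 0. Within liver, Tcf3 was at a mean of 74.7 CPM in cluster 1 and 135 CPM in cluster 2. Of the 99 Tcf4 UMIs, 25 were in iNKT17-like cells and 20 in cluster 2, in both cases all from lymph node, and 18 were in cluster 0. The iNKT17-like markers themselves summed to 122 to 307 CPM in the liver and spleen libraries and 1411 to 1501 CPM in the lymph node libraries, and their part in the Tcf4 difference was not tested.

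The pathway around these genes was described with lists of genes chosen by function. Among inputs to Id gene transcription, 8 of 9 genes were tested in sums over all cells. Between liver and lymph node 6 were called, 2 higher and 4 lower in liver, where 37.5% of all genes were called. Egr2 and Egr1, immediate targets of T cell receptor signalling that are known to act on Id3, were lower in liver (log2 -1.93 and -0.87, edgeR adjusted p = 8.82e-05 and 0.000122) and in spleen (-1.74 and -0.81, edgeR adjusted p = 0.00173 and 0.00138). Their mean levels were 3.53, 3.75 and 12.7 CPM for Egr2 and 23.0, 22.7 and 40.4 CPM for Egr1 in liver, spleen and lymph node. For both Egr genes the liver and spleen means lay near each other, although the liver libraries themselves held 1.82 and 5.23 CPM of Egr2. On the TGF-β arm, the receptor gene Tgfbr2 (0.79, edgeR adjusted p = 5.52e-05) and the signal transducer Smad3 (0.93, edgeR adjusted p = 8.78e-05) were higher in liver than in lymph node, while Smad2 (-0.52, edgeR adjusted p = 0.00457) and the inhibitory Smad7 (-0.50, edgeR adjusted p = 0.00631), both given after their values were seen, were lower. Between liver and spleen 3 of the 8 were called, against 25.9% of all genes, with Tgfbr2 at 0.48 and Smad7 at 0.44 higher in liver and Smad2 at -0.46 lower (edgeR adjusted p = 0.0121, 0.0394 and 0.0169). For spleen against lymph node 4 were called, against 18.2% of all genes, of which Smad3 was the one higher in spleen (0.57, edgeR adjusted p = 0.0344).

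Among genes known to be regulated by E proteins in lymphocytes, 15 of 19 were tested, and 9, 9 and 8 were called in the 3 pairs, where 25.9%, 37.5% and 18.2% of all genes were. They moved both ways. For liver against lymph node, 4 were higher, among them the repressor Gfi1 (log2 2.07, edgeR adjusted p = 6.03e-09) and the receptor Notch1 (1.04, edgeR adjusted p = 5.30e-06). Another 5 were lower, among them the cell-cycle inhibitor Cdkn1a (-3.75, edgeR adjusted p = 2.25e-12). Between spleen and lymph node 2 were higher and 6 lower in spleen. Between liver and spleen 5 were higher in liver, Cdkn1a among them (1.41, edgeR adjusted p = 0.0346), and 4 were lower. Cdkn1a was scarce in both organs, at 4.77 and 3.43 CPM in liver and 2.58 and 0.277 CPM in spleen. The medians of the list were 0.27, -0.05 and -0.27 for liver against spleen, liver against lymph node and spleen against lymph node, beside 0.02, 0.01 and 0.00 over all tested genes. The make-up of the organs moved with these values, since iNKT17-like cells were 34.2% of lymph node cells and 0.989% and 1.34% of liver and spleen cells, and its part in them was not tested.

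Factors of the iNKT lineages and partners of E proteins were read in the same way. Of 7 lineage factors tested, 5, 5 and 3 were called, beside 25.9%, 37.5% and 18.2% of all genes. Of these calls 3, 4 and 3 were higher in the organ named first in each pair. Tbx21, which encodes the iNKT1 factor T-bet, lay at 126, 85.8 and 28.7 CPM on average in liver, spleen and lymph node and was higher in liver than in lymph node (log2 2.08, edgeR adjusted p = 2.87e-13). Prdm1, which encodes the effector factor Blimp-1, was also higher there (1.26, edgeR adjusted p = 8.02e-05). Lef1, a factor of naive T cells, was lower in liver than in spleen (-0.64, edgeR adjusted p = 0.000105). It was higher in spleen than in lymph node (0.52, edgeR adjusted p = 0.00158) and was not called between liver and lymph node (-0.13, edgeR adjusted p = 0.417). Gata3, linked to the iNKT2 subset, was lower in liver than in lymph node (-0.36, edgeR adjusted p = 0.0136). Of the 5 partner genes tested, Ldb1 was higher in liver than in spleen (0.44, edgeR adjusted p = 0.0292) and the coactivator gene Crebbp higher in liver than in lymph node (0.35, edgeR adjusted p = 0.0320), and edgeR called none between spleen and lymph node.

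Genes with patterns like those of the Id genes were ranked over 35 sums, one for each cell class and library, and 5878 genes by Spearman's rho. The sums share libraries, organs and depth, so the values are descriptions. Id2 was most alike to Hcst, which encodes the adaptor DAP10 (rho 0.89), then B4galnt1 and Gimap6 (both 0.86), and most opposed to Reep5 (-0.83), Vim (-0.82) and Slc25a4 (-0.78). Id3 was most alike to Cd9 (0.76), Rap1a (0.74) and the lymph node homing receptor Ccr7 (0.74), and most opposed to the cytokine signalling inhibitor Socs2 (-0.75), AI504432 (-0.74) and Zcchc18 (-0.71). Id2 and Id3 themselves were at rho -0.59.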

How the data were processed

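The authors prepared 10x Genomics Chromium 3′ v2 libraries and, per the submitters' processing notes, used Cell Ranger 3.1.0, Seurat and the mm10 build. The deposited matrices hold raw UMI counts per gene and barcode with no normalization, and the deposited gene and barcode lists hold identifiers. Gene positions came from GENCODE vM21 (GRCm38), which held 98.7% of the 27998 identifiers. The annotation behind the counts is not given in the sources used here, and strand was not stated for the counting.

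Barcodes with 300 to 4000 genes and at most 15% mitochondrial UMIs were kept (16532 of 16587), and 111 ribosomal and haemoglobin genes were removed. No doublets were removed in the main setting. Pairs of libraries shared 6 to 20 barcodes. Counts were clustered with scanpy 1.11.5 and leidenalg 0.10.2 (2997 variable genes without the members, 20 principal components, 20 neighbours, Leiden resolution 0.5). A cluster was named where the median log2 fold of a marker list was at least 0.5 and at least 3 markers were 2-fold up, or left unnamed, with 10 CPM added before folds. These thresholds were chosen with the clusters in view. UMIs were summed per library and class and compared with edgeR 4.0.16 under R 4.3.3 (a filterByExpr minimum count of 10, TMM, quasi-likelihood test, Benjamini-Hochberg adjustment over all genes tested). The script was tested on simulated data. Exact permutation tests over libraries were used for ratios and shares.

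The alternatives were DESeq2 1.42.0, upper-quartile scaling, no filter on low counts, the replicate number as a block, other cell filters, thinning, other resolutions and leaving out each library. Members and lists were chosen with earlier results of these data known. Named genes were the 5 members, up to 2 called genes per list, pair and direction with the largest fold, and the 3 genes most alike and most opposed to each Id gene over sums of at least 50 cells and 20 CPM. Egr1 in spleen against lymph node fell outside this rule and was given after its values were seen, as were the leading genes of clusters. A gene that this rule would also name is not reported here.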

Additional observations from a re-analysis of the deposited data

Results flagged for a closer look

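A test of class by organ with library as a block called differences in the organ effect on the Id genes between cell classes. Id3 had too few counts to be tested in iNKT1-like or iNKT17-like cells alone, so no conclusion is drawn from its calls in this section. For Id3 the effect of liver against lymph node was higher by log2 4.59 in iNKT17-like than in iNKT1-like cells (SE 1.22, edgeR adjusted p = 0.0187), where 64 of 3495 genes tested were called. This was lost whenever any 1 library was left out (3.42 to 5.34, edgeR adjusted p of 0.0745 to 0.735), and it rests on few Id3 UMIs in both classes, with 5 and 3 in lymph node iNKT1-like cells.

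The other differences involve RTE-like cells, a comparison added after seeing the data, and those with lymph node include the Dapl1-led cells described above. Every one of them was lost in at least 1 of the 6 fits with a library left out. In iNKT1-like cells the Id3 UMIs numbered 25 and 17 for liver, below the count filter, and 11 and 2 for spleen. Against these cells, the Id3 effect of liver against spleen in RTE-like cells was higher by 2.55 (SE 0.64, edgeR adjusted p = 0.0128), where 1.36% of genes were called. It was 1.27 without liver replicate 1 and 0.91 without spleen replicate 1 (edgeR adjusted p = 0.698 and 0.957). The Id2 effect of spleen against lymph node was higher by 0.49 (SE 0.12, edgeR adjusted p = 0.0178, 0.909% of genes called), and by 0.44 without spleen replicate 1 and 0.34 without lymph node replicate 1 (edgeR adjusted p = 0.125 and 0.489).

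Against iNKT17-like cells, the Id3 effect of liver against lymph node differed by -2.41 (SE 0.61, edgeR adjusted p = 0.0130), where 0.925% of genes were called and liver iNKT17-like cells held 3 and 9 Id3 UMIs. It was -0.56 without liver replicate 2 and -2.23 without lymph node replicate 2 (edgeR adjusted p = 0.948 and 0.0738). For liver against lymph node the Id2 effect was higher by 0.73 (SE 0.14, edgeR adjusted p = 0.000118), and by 0.56 without liver replicate 2 and 0.67 without lymph node replicate 1 (edgeR adjusted p = 0.0753 and 0.0727). For spleen against lymph node it was higher by 0.84 (SE 0.15, edgeR adjusted p = 1.53e-05, 0.329% of genes called), and by 0.79 without spleen replicate 1 (edgeR adjusted p = 0.0592).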

How the results depend on the processing

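The Id3 differences in sums over all cells kept their direction and their call under all 17 alternatives, at log2 -1.90 to -1.66, -2.98 to -2.42 and -1.24 to -0.67 for the 3 pairs in the order used above. Members called stayed at 1 for liver against spleen. With 1 library left out they ranged from 1 to 3 for liver against lymph node and from 1 to 4 for spleen against lymph node, with 1 in both cases without lymph node replicate 1. The Id2 values then ranged from 0.41 to 0.43 and from 0.44 to 0.56. In iNKT1-like cells 1 call became 3 with the member genes kept in clustering, and 1 to 3 with a library left out, the added calls being of Id3. In RTE-like cells 4 calls became 2 with DESeq2, 2 with the replicate block, 2 to 5 with a library left out and 0 without the Dapl1-led cells. No RTE-like class was found at resolution 0.3. The single call between iNKT17-like and iNKT1-like organ effects was of Id3, which was not tested at resolution 1.0. Its loss with a library left out is given above (log2 3.42 to 5.34). Tcf3 between spleen and lymph node was also called with the replicate block (0.37, edgeR adjusted p = 0.0399). Its value between liver and lymph node was -0.04 without liver replicate 1. No member value called in the main setting over all cells, in a class or between classes changed sign under the alternatives run. Comparisons within single clusters had no alternatives. The log2 differences in the Id2 to Id3 ratio ranged from 1.52 to 1.83, 2.83 to 3.41 and 1.16 to 1.74 for the 3 pairs. Its exact p of 0.0667 is the smallest possible and cannot show stability.

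Genes called over all cells fell from 2656 to 1446 with DESeq2, 1381 without liver replicate 1 and 1397 without spleen replicate 2 for liver against spleen. They fell from 3848 to 2408 without lymph node replicate 2 for liver against lymph node, and from 1869 to 1137 with DESeq2 and 1017 without that library for spleen against lymph node. The labels do not say whether libraries with the same replicate number belong together. Correlations of their deviations were 0.0990, 0.0842 and 0.0756, which cannot settle this. Used as a block, the replicate numbers gave 3070, 4170 and 2138 calls. Low counts kept Id3 and Tcf4 out of the test in iNKT1-like and iNKT17-like cells.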
